A study of Oryctolagus cuniculus with 16 samples.

Results

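Solute carriers are membrane proteins that move nutrients, ions, metabolites and drugs across the cell membrane or the membranes of organelles. The genes described here are all named rabbit genes whose symbol begins with SLC and a digit, apart from SLC2A4, kept where all arrays of 1 or more groups had the probe well above background. A probe was named through its transcript accession, and the brightest probe stood for a gene. Of 77 such genes with a named probe, 71 passed, among 19327 genes and transcripts tested, of which 1996 had a gene name. The 6 that did not pass were SLC10A1, SLC10A2, SLC26A3, SLC26A5, SLC6A19 and SLC9A3, carriers best known from liver, gut, kidney and inner ear, and none of them has a value below.

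The tissue was vein from male rabbits, in 3 groups. Day 1 and day 7 grafts were taken 1 day (6 arrays) and 7 days (6 arrays) after graft surgery, and the control group had a sham operation (4 arrays). Each array was a one-colour Agilent rabbit array. The labels give no strain, age or vein, do not say whether the arrays came from separate animals, and name no transgene or drug in any group.

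Amino acid carriers at the cell surface commonly work as exchangers or as sodium-coupled pumps, and the large neutral amino acid exchanger SLC7A5 reaches the membrane only in a pair with the heavy chain SLC3A2. Chloride and bicarbonate carriers of the SLC4 and SLC12 families set cell volume and pH. SLC25 proteins connect the mitochondrial matrix with the cytosol, while SLC22 and SLC47 proteins carry organic cations and anions, a task best studied in kidney and liver but also carried out by smooth muscle and connective tissue.

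Arrays of one group that differed by less than the noise between replicate spots were averaged and counted as 1 sample. On day 1, arrays at the same slide position had an SD of the log2 difference of 0.107 to 0.132, below the 0.218 of replicate spots, so the 6 arrays became 2 samples. The 6 arrays of day 7 likewise became 2 samples (0.0752 to 0.0966 against 0.199). Arrays at different positions were little above that noise, with an SD of 0.228 to 0.237 on day 1 and 0.223 to 0.227 on day 7. Set against the spot noise of its own 2 arrays, the closest such day 1 pair had a variance ratio of 0.928. Whether the 2 samples of a graft group hold separate RNA was not tested. The 4 sham arrays stayed separate but stood in 2 pairs, with an SD of 0.23 to 0.273 within a pair and 0.724 to 0.734 between pairs. Of the 71 carriers, 12 had sham pairs more than 1 apart on the log2 scale. The p-values measure only the spread between these samples, which may be technical. Sham and graft arrays were never scanned together, so any comparison with sham is also one between scans, and scan and surgery cannot be told apart. The 75th percentile of the raw signal was 863 to 1023 on day 1 arrays, 2488 to 2831 on day 7 arrays and 1329 to 2026 on sham arrays. Values below are quantile-normalized log2 signals of 1 probe each, so they are compared between groups and not between genes.

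A gene was called differentially expressed (a DEG) at an adjusted p below 0.05 and a log2 fold change of at least 1 in size, by limma with Benjamini-Hochberg adjustment over all genes. On day 1 against sham, 35 of the 71 carriers were DEGs (49.3%), 19 higher and 16 lower, where 50.9% of all genes tested were called (28.9% higher and 22% lower). On day 7 against sham, 19 carriers were DEGs (26.8%), 8 higher and 11 lower, where 31.3% of all genes were called (17.6% higher and 13.6% lower). Between day 7 and day 1, 29 carriers were DEGs (40.8%), 12 higher on day 7 and 17 lower, where 41.6% of all genes were called (19.3% higher and 22.3% lower). Over the 1996 named genes the shares were 51.1%, 35.5% and 41.5% in the same order. The carriers' shares lie near these on day 1 and between the days. On day 7 the carriers were called less often than named genes, with 11.3% higher beside 18.8%, and this difference was not tested. The number of carriers called is therefore not read as a result about carriers. The median log2 fold change of the carriers was 0.11 on day 1, 0.03 on day 7 and -0.38 between the days, beside 0.26, 0.05 and -0.16 over all genes. Scaling each array to its 75th percentile in place of quantile normalization moved the median of all genes to 0.68, -0.11 and -0.64 in the same order. The split of the carriers' calls then became 30 higher and 11 lower on day 1, 7 higher and 16 lower on day 7, and 8 higher and 28 lower between the days. With normexp background correction, 40 of the carriers' 83 calls were lost, 37 of them among the 48 calls of carriers with a mean sham log2 signal below 8.

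Both graft comparisons share the sham samples, and their calls were set side by side for each gene. SLC7A5, SLC12A7, SLC36A1 and SLC46A1 were higher than sham on both days. SLC1A1, SLC4A4, SLC12A4, SLC15A2, SLC22A3 and SLC22A4 were lower on both days. SLC25A15 and SLC5A2 were called in opposite directions on the 2 days. Another 9 carriers were called lower and 14 higher on day 1 alone, while 3 were called higher (SLC3A2, SLC4A11 and SLC24A5) and 4 lower (SLC12A1, SLC47A1, SLC47A2 and SLC5A6) on day 7 alone. The comparison of the days uses the same graft samples, so the following counts are in part fixed by how these carriers were grouped. In it, all 9 of the carriers lower on day 1 alone were called higher on day 7, and 8 of the 14 higher on day 1 alone were called lower on day 7. Of the carriers called on day 7 alone, 2 of the 3 higher ones and 2 of the 4 lower ones were DEGs against day 1 too. For SLC47A2, 1 of these, the bound on that difference was 1.39-fold, short of the fold threshold. In all, 46 carriers were DEGs in at least 1 comparison. The shares of all genes with these patterns were not computed, so the counts of this paragraph are not read as a result about carriers.

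**Figure D1:**
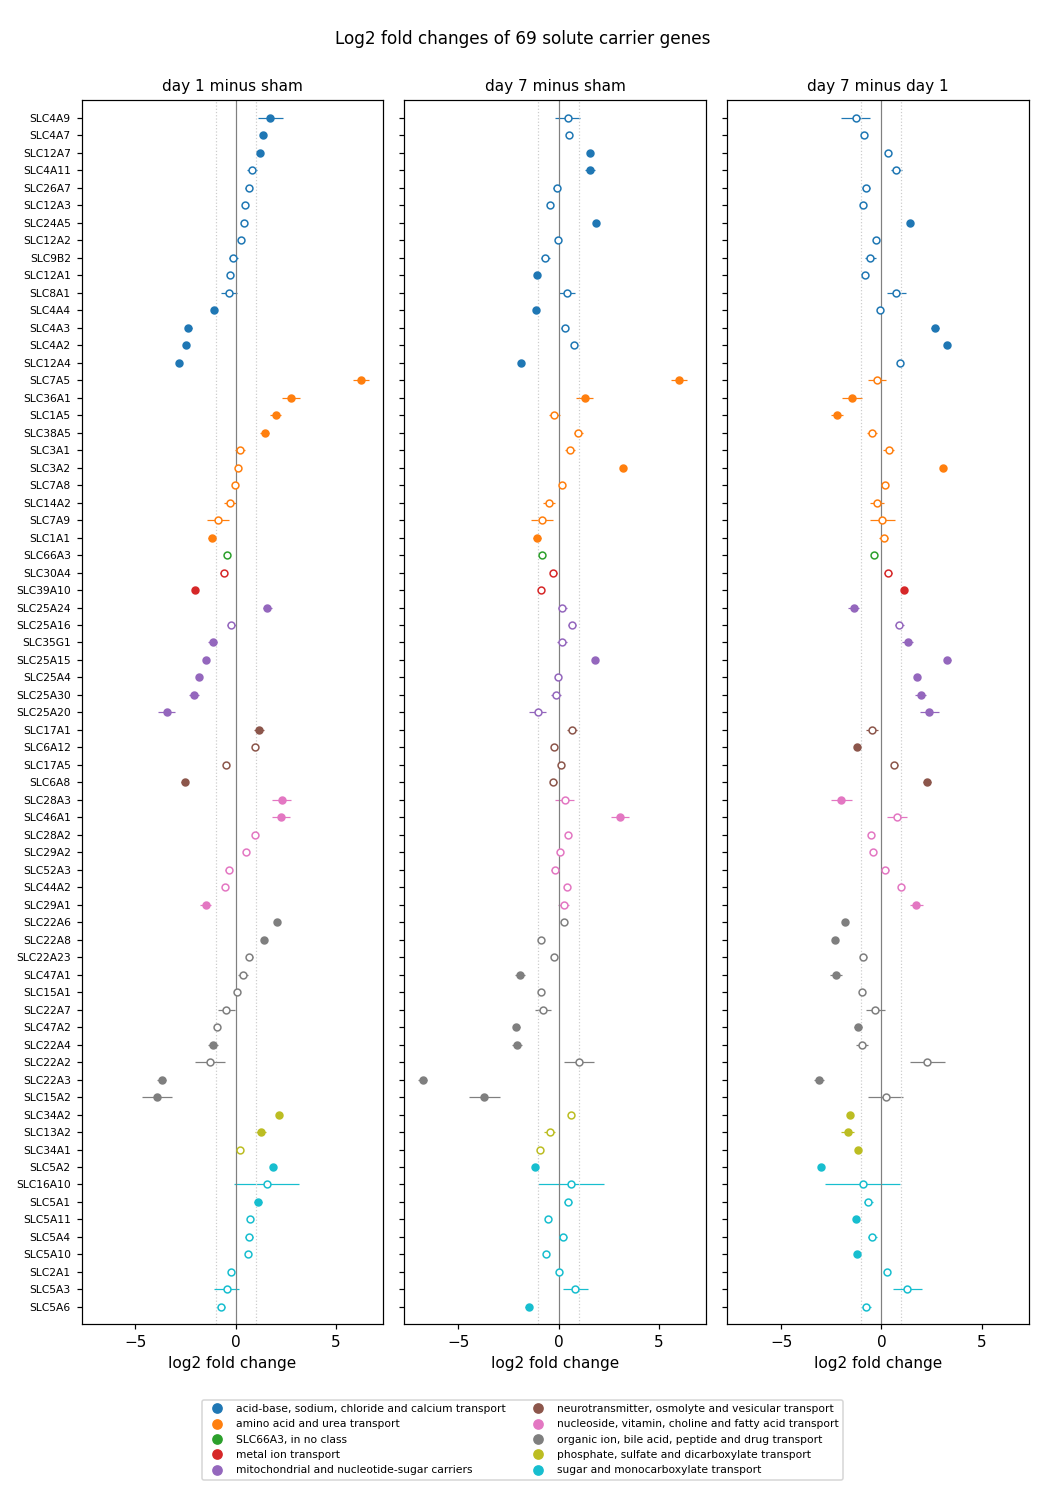
Log2 fold change of 69 of the 71 carriers (rows, grouped by transport class in colour) for day 1 minus sham, day 7 minus sham and day 7 minus day 1. Bars are standard errors from limma, filled points are DEGs and dotted lines mark a log2 fold change of 1 in size; SLC7A5 stands at 6.27 and 6.04 above sham and SLC22A3 at -3.69 and -6.79 below it.

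Among the 10 carriers of amino acids and urea, 4 were higher and 1 lower on day 1 (all genes 28.9% and 22%). On day 7, 3 were higher and 1 lower (all genes 17.6% and 13.6%). No class, here or below, was tested against the shares of all genes. SLC7A5 (NM_001082120, probe A_04_P001406) rose on both days. Its log2 signal was 9.40, 9.33, 10.42 and 10.64 in the sham samples, 16.30 and 16.13 on day 1, and 15.88 and 16.09 on day 7. Every graft sample lay more than 5 above every sham sample. The log2 fold change was 6.27 ± 0.40 (SE, adjusted p = 7.07e-06) on day 1, a 77.0-fold difference, and 6.04 ± 0.40 (adjusted p = 1.77e-05) on day 7, a 65.7-fold difference. The difference between the days was -0.23 ± 0.46 (adjusted p = 0.681).

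SLC3A2 (NM_001082656), the heavy chain that partners SLC7A5, did not share its timing. SLC3A2 read 9.21, 9.13, 9.30 and 9.29 in sham, 9.29 and 9.41 on day 1, and 12.48 and 12.41 on day 7. Day 1 overlapped the sham samples (log2 fold change 0.11 ± 0.10, adjusted p = 0.326), while both day 7 samples were higher than all others. The log2 fold change on day 7 was 3.21 ± 0.10 (adjusted p = 7.29e-07) against sham, a 9.25-fold difference, and 3.10 ± 0.11 (adjusted p = 3.44e-06) against day 1. Both are RNA values, and the proteins were not measured.

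SLC1A5, the sodium-coupled glutamine and neutral amino acid exchanger, was high on day 1 alone. Its brightest probe read 13.63, 13.69, 14.37 and 14.38 in sham, 16.00 and 16.04 on day 1, and 13.67 and 13.95 on day 7. The day 1 samples lay above all others, and day 7 lay inside the sham range. Against sham the change was 2.0 ± 0.26 on day 1 (adjusted p = 0.000274), -0.20 ± 0.26 on day 7 (adjusted p = 0.523) and -2.21 ± 0.30 between the days (adjusted p = 0.00053). A second, dimmer probe of SLC1A5 went the other way between the days, with 1.27 and a call, so the fall of this gene from day 1 to day 7 rests on 1 of its 2 probes. With the mean of both, neither that fall (-0.47) nor the day 1 rise (0.78) was a DEG.

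SLC36A1, a proton-coupled carrier of small amino acids in lysosomes and at the cell surface, read 6.64, 6.43, 5.41 and 5.10 in sham, 8.62 and 8.70 on day 1, and 7.15 and 7.24 on day 7. The groups did not overlap, although the sham pairs differed by 1.28. The day 1 rise of 2.76 ± 0.44 (adjusted p = 0.000832) was called with 5 of 6 probes. On day 7 the rise was 1.30 ± 0.44 (adjusted p = 0.0365), and without the sham pair of arrays 3 and 4 it was 0.66 and no longer a DEG. SLC38A5, a sodium-coupled carrier of glutamine and glycine, was the other DEG that rose on day 1, by 1.46 ± 0.22 (adjusted p = 0.000701), with 0.99 on day 7.

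The 1 carrier of this class called lower, on both days, was SLC1A1, the neuronal and epithelial glutamate and cysteine carrier. SLC1A1 read 7.80, 7.48, 7.16 and 7.15 in sham, 6.15 and 6.28 on day 1, and 6.41 and 6.26 on day 7. All graft samples were below all sham samples, with a change of -1.18 ± 0.20 on day 1 (adjusted p = 0.00114) and -1.06 ± 0.20 on day 7 (adjusted p = 0.00294). These are values of its brighter probe. The other probe of SLC1A1 was at 0.74 on day 1, not a DEG, and at -0.72 on day 7, and was called lower between the days (-1.46). With the mean of both probes the changes were -0.22 and -0.89, and neither was a DEG. SLC7A8, another light chain that pairs with SLC3A2, lay within 12.98 to 13.34 over all 8 samples. Its differences from sham were -0.01 ± 0.11 and 0.16 ± 0.11.

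**Figure D2:**
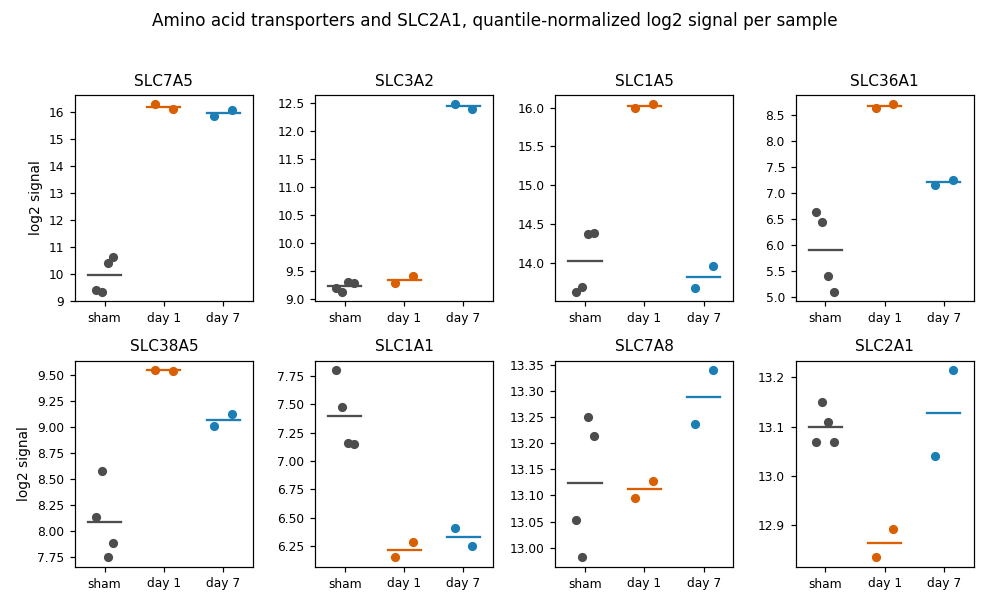
Quantile-normalized log2 signal of 7 amino acid carriers and the glucose carrier SLC2A1 in each sample (points; 4 sham, 2 day 1, 2 day 7), with the group mean as a line. SLC7A5 is high on both days, SLC3A2 only in the day 7 samples and SLC1A5 only in the day 1 samples; each panel has its own scale and the axes do not start at 0.

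Among the 12 carriers of organic ions, bile acids, peptides and drugs, 3 were higher and 3 lower on day 1 (all genes 28.9% and 22%). On day 7, 0 were higher and 5 lower (all genes 17.6% and 13.6%). Their median log2 fold change on day 7 was -0.87, beside 0.05 over all genes. SLC22A3 (NM_001082169, probe A_04_P000218), the low-affinity transporter of monoamines and other organic cations, fell on both days. Its log2 signal was 15.35, 15.09, 15.78 and 15.27 in sham, 11.94 and 11.42 on day 1, and 8.58 and 8.58 on day 7. The 3 groups were fully separate, with sham highest and day 7 lowest. Its change was -3.69 ± 0.22 on day 1 (adjusted p = 5.24e-06), -6.79 ± 0.22 on day 7 (adjusted p = 9.03e-07) and -3.10 ± 0.25 between the days (adjusted p = 5.02e-05). The day 7 level was thus 111-fold below sham. All 6 probes of SLC22A3 were called lower on both days.

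SLC15A2, the high-affinity peptide carrier, read 9.46, 9.56, 11.81 and 11.86 in sham, 6.74 and 6.77 on day 1, and 6.82 and 7.12 on day 7. The sham pairs were 2.32 apart, yet both lay above every graft sample. It changed by -3.92 ± 0.77 on day 1 (adjusted p = 0.0025) and by -3.70 ± 0.77 on day 7 (adjusted p = 0.00488).

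SLC22A4, the carrier of ergothioneine and carnitine, read 6.31, 6.35, 6.01 and 6.00 in sham, 4.88 and 5.22 on day 1, and 4.51 and 3.67 on day 7. No graft sample overlapped sham, and 5 of 6 day 7 arrays were well above background. The log2 fold change was -1.12 ± 0.25 on day 1 (adjusted p = 0.0048) and -2.08 ± 0.25 on day 7 (adjusted p = 0.000341). The multidrug extrusion carriers SLC47A1 and SLC47A2 move organic cations out of cells in exchange for protons. SLC47A1 read 10.57, 11.30, 11.18 and 11.14 in sham, 11.70 and 11.11 on day 1, and 9.13 and 9.14 on day 7. Day 1 overlapped sham, and day 7 was lower, with a change of -1.91 ± 0.24 against sham (adjusted p = 0.000461) and of -2.27 ± 0.28 against day 1 (adjusted p = 0.000353). SLC47A2 passed the probe filter through sham alone, with 5 of 6 day 1 arrays well above background. It was not well above background on any day 7 array, so only a bound exists there. Its level on day 7 was at least 2.63-fold lower than in sham and at least 1.39-fold lower than on day 1. The limma adjusted p-values (4.65e-05 and 0.00146) rest on measured day 7 values not well above background. At its bound, the difference from day 1 is short of the fold threshold.

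SLC22A6 and SLC22A8, the organic anion carriers OAT1 and OAT3, rose on day 1. SLC22A6 read 6.37, 6.51, 6.49 and 6.56 in sham, 8.61 and 8.48 on day 1, and 6.78 and 6.70 on day 7. This rise was 2.06 ± 0.10 on day 1 (adjusted p = 2.11e-06), against 0.26 ± 0.10 on day 7 (adjusted p = 0.0615). SLC22A8 read between 7.80 and 8.07 in sham, 9.44 and 9.34 on day 1, and 7.05 and 7.14 on day 7. It was above sham on day 1 by 1.42 ± 0.11 (adjusted p = 1.82e-05), while the day 7 difference of -0.88 fell short of the fold threshold. From day 1 to day 7 SLC22A6 fell by 1.81 and SLC22A8 fell by 2.30 on the log2 scale, both DEGs.

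**Figure D3:**
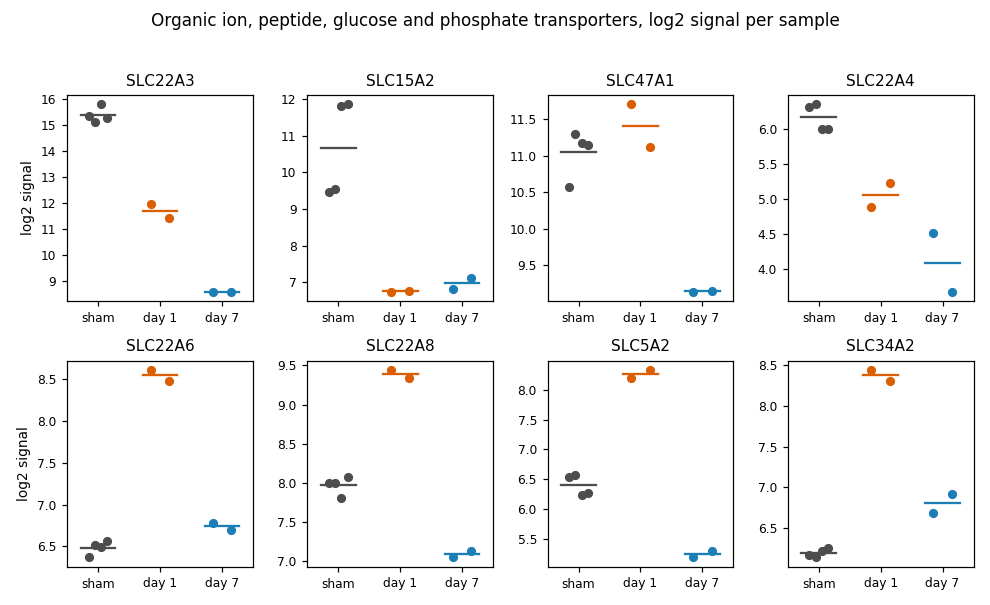
Quantile-normalized log2 signal per sample (points; group means as lines) of SLC22A3, SLC15A2, SLC47A1, SLC22A4, SLC22A6, SLC22A8, the glucose carrier SLC5A2 and the phosphate carrier SLC34A2. SLC22A3 descends from 15.09 to 15.78 in sham to 8.58 on day 7, whereas SLC22A6, SLC22A8, SLC5A2 and SLC34A2 peak on day 1; each panel has its own scale.

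Among the 7 mitochondrial and nucleotide-sugar carriers, 1 was higher and 5 lower on day 1 (all genes 28.9% and 22%). Against day 1, 5 were higher and 1 lower on day 7 (all genes 19.3% and 22.3%). The median log2 fold change of the 7 was -1.48 on day 1 and 1.78 between the days, beside 0.26 and -0.16 over all genes. With the dim SLC25A30 at its bound these medians were -1.29 and 1.32. SLC25A4 (NM_001082686), the ADP/ATP carrier of heart and muscle mitochondria, read 17.34, 17.16, 17.31 and 17.32 in sham, 15.47 and 15.47 on day 1, and 17.20 and 17.29 on day 7. Day 1 lay below all other samples, and day 7 lay inside the sham range. The log2 fold change was -1.81 ± 0.10 on day 1 (adjusted p = 3.12e-06), -0.04 ± 0.10 on day 7 (adjusted p = 0.775) and 1.78 ± 0.11 between the days (adjusted p = 1.64e-05). All 5 probes of SLC25A4 gave both calls.

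SLC25A20, which carries acylcarnitines into the matrix for fatty acid oxidation, read 10.29, 10.27, 11.58 and 11.48 in sham, 7.49 and 7.46 on day 1, and 9.91 and 9.81 on day 7. Day 1 lay below all other samples, with a change of -3.43 ± 0.42 (adjusted p = 0.00021). SLC25A20 then rose by 2.39 ± 0.48 from day 1 to day 7 (adjusted p = 0.00398), and its day 7 samples still lay below all sham samples without a call (-1.05, adjusted p = 0.0666). SLC25A30, an uncoupling-protein relative, was not well above background on any day 1 array. It was at least 2.44-fold lower on day 1 than in sham (adjusted p = 0.000147) and at least 2.24-fold higher on day 7 than on day 1 (adjusted p = 0.000657). SLC35G1, a membrane protein of the nucleotide-sugar carrier superfamily, fell by 1.15 on day 1 and was 1.32 higher on day 7 than on day 1, both DEGs.

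SLC25A15, the ornithine carrier of the urea cycle, was called in opposite directions on the 2 days. SLC25A15 read 5.56, 5.48, 5.82 and 5.97 in sham, 4.18 and 4.28 on day 1, and 7.51 and 7.54 on day 7. The groups did not overlap. The log2 fold change was -1.48 ± 0.15 on day 1 (adjusted p = 8.93e-05), 1.82 ± 0.15 on day 7 (adjusted p = 5.91e-05) and 3.30 ± 0.18 between the days (adjusted p = 9.46e-06). Scaled to the 75th percentile, its fall on day 1 was -0.71 and below the fold threshold. SLC25A24, the ATP-magnesium and phosphate carrier, was the one member of the class that rose on day 1 by its brightest probe (1.58 ± 0.23, adjusted p = 0.00051), and its probes disagreed, as described with the probe values.

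Creatine enters cells through SLC6A8, which feeds the same energy reserve from outside the mitochondrion. SLC6A8 read 8.88, 8.48, 8.42 and 8.28 in sham, 6.04 and 5.92 on day 1, and 8.23 and 8.29 on day 7. Day 1 was lower than all other samples, with a log2 fold change of -2.54 ± 0.17 (adjusted p = 8.89e-06), and day 7 differed from sham by -0.26 ± 0.17 (adjusted p = 0.227). Of the other 3 carriers in its class, SLC17A1, a phosphate and urate carrier, rose on day 1 by 1.18 ± 0.26 (adjusted p = 0.00429). SLC6A12, the betaine and GABA carrier, fell by 1.21 from day 1 to day 7 (adjusted p = 0.000614).

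**Figure D4:**
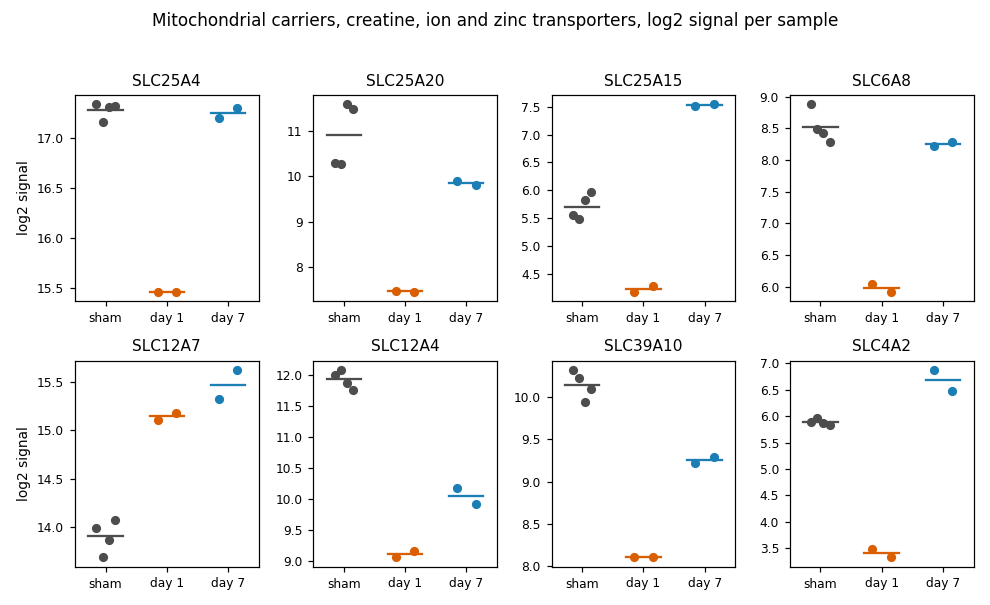
Quantile-normalized log2 signal per sample (points; group means as lines) of 3 mitochondrial carriers, the creatine carrier SLC6A8, 3 ion carriers and the zinc importer SLC39A10. SLC25A4, SLC25A20, SLC6A8, SLC39A10 and SLC4A2 are lowest on day 1, SLC12A7 is above sham and SLC12A4 below sham on both days; each panel has its own scale, and SLC4A2 was not well above background on day 1.

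Among the 16 carriers of acid, bicarbonate, sodium, chloride and calcium, 4 were higher and 4 lower on day 1 (all genes 28.9% and 22%). On day 7, 3 were higher and 3 lower (all genes 17.6% and 13.6%). The potassium and chloride cotransporters SLC12A4 and SLC12A7 went opposite ways. SLC12A4 read 11.99, 12.07, 11.87 and 11.75 in sham, 9.05 and 9.16 on day 1, and 10.17 and 9.92 on day 7. SLC12A4 changed by -2.82 ± 0.13 on day 1 (adjusted p = 1.74e-06) and by -1.88 ± 0.13 on day 7 (adjusted p = 2.25e-05). SLC12A7 read 13.99, 13.69, 13.86 and 14.07 in sham, 15.11 and 15.18 on day 1, and 15.32 and 15.62 on day 7. Its rise was 1.24 ± 0.14 on day 1 (adjusted p = 0.00016) and 1.57 ± 0.14 on day 7 (adjusted p = 8.92e-05), and all 5 of its probes were called higher on both days.

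The bicarbonate carrier SLC4A7 rose by 1.39 ± 0.10 on day 1 by its brightest probe (adjusted p = 1.33e-05). That probe was at 0.51 on day 7, not a DEG, while 6 of its 8 probes were called higher there. SLC4A9, an anion exchanger relative, rose by 1.74 ± 0.63 (adjusted p = 0.0374), with sham values of 7.53, 7.60, 5.65 and 5.73. Without the sham pair of arrays 3 and 4 this was 0.80 and no longer a DEG, and the call was also lost without replicate 3 or 4 of sham (1.42 and 1.44).

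The anion exchangers SLC4A2 and SLC4A3 trade chloride for bicarbonate, and neither was well above background on any day 1 array, while both were on all sham and day 7 arrays. SLC4A2 was at least 5.15-fold lower on day 1 than in sham (adjusted p = 2.99e-06) and at least 8.87-fold higher on day 7 than on day 1 (adjusted p = 5.65e-06). SLC4A3 was at least 2.80-fold lower on day 1 (adjusted p = 1.85e-05) and at least 3.48-fold higher on day 7 than on day 1 (adjusted p = 4.21e-05). The sodium bicarbonate cotransporter SLC4A4 read 7.22, 7.22, 7.45 and 7.48 in sham and 6.13 to 6.34 in the 4 graft samples. Its change was -1.09 ± 0.12 on day 1 and -1.15 ± 0.12 on day 7, both DEGs.

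On day 7 alone, SLC24A5, a potassium-dependent sodium and calcium exchanger of pigment organelles, rose by 1.87 ± 0.10 (adjusted p = 7.99e-06), from 5.54 to 5.78 in sham to 7.51 and 7.50. It was also 1.43 ± 0.12 above day 1 (adjusted p = 5.37e-05). SLC4A11, a water and proton pathway of the corneal endothelium, rose by 1.58 ± 0.25 against sham (adjusted p = 0.00134), and its difference from day 1, 0.75, was not a DEG. SLC12A1, the sodium, potassium and chloride cotransporter of the kidney, fell by 1.07 ± 0.13 on day 7 by its brighter probe (adjusted p = 0.00039). Its other probe was at 0.58 there, and with the mean of both the change was -0.25 and no DEG. Of the 2 metal carriers, the zinc importer SLC39A10 read 10.32, 10.22, 9.94 and 10.10 in sham, 8.10 and 8.11 on day 1, and 9.22 and 9.29 on day 7. Its change on day 1 was -2.04 ± 0.12 (adjusted p = 6.11e-06), and its day 7 difference of -0.89 was short of the fold threshold.

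The 9 carriers of the SLC2, SLC5 and SLC16 families were classed by family and are known mainly for sugars and monocarboxylates. Of these, 2 were higher and 0 lower on day 1 (all genes 28.9% and 22%). On day 7, 0 were higher and 2 lower (all genes 17.6% and 13.6%). SLC5A2 is the sodium and glucose cotransporter SGLT2, known from the kidney. It read 6.54, 6.57, 6.24 and 6.27 in sham, 8.19 and 8.34 on day 1, and 5.18 and 5.29 on day 7. The groups did not overlap, and day 1 was highest and day 7 lowest. On the log2 scale the change was 1.86 ± 0.13 on day 1 (adjusted p = 1.33e-05), -1.17 ± 0.13 on day 7 (adjusted p = 0.000273) and -3.03 ± 0.15 between the days (adjusted p = 7.88e-06). SLC5A1, the intestinal cotransporter SGLT1, rose by 1.13 ± 0.19 on day 1 (adjusted p = 0.00112). Its relatives SLC5A10 and SLC5A11 were DEGs between the days alone, with changes of -1.24 and -1.25. SLC5A6, the sodium-dependent multivitamin carrier for biotin and pantothenate, changed on day 7 by -1.49 ± 0.19 by its brighter probe (adjusted p = 0.00048). That probe went from 12.90 to 13.46 in sham to 11.58 and 11.83. The second probe of SLC5A6 was at -0.56 on day 7, not a DEG.

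SLC2A1, the basal glucose carrier GLUT1, read 12.84 to 13.21 over all 8 samples and was in no comparison a DEG. Its differences from sham were -0.24 ± 0.09 on day 1 and 0.03 ± 0.09 on day 7. SLC16A10, a carrier of aromatic amino acids that belongs to the monocarboxylate family, had the widest sham spread, with 12.24 and 12.29 in arrays 1 and 2 and 7.24 and 7.27 in arrays 3 and 4. Its graft samples, at 11.34 and 11.28 on day 1 and 10.41 and 10.34 on day 7, lay between the sham pairs, and no difference from sham could be shown at that spread (SE 1.64).

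All 3 phosphate and dicarboxylate carriers were lower on day 7 than on day 1 (22.3% of all genes). On day 1, 2 of them had risen (28.9% of all genes). SLC34A2, a sodium-phosphate cotransporter of lung and gut, read 6.17, 6.14, 6.22 and 6.25 in sham, 8.44 and 8.31 on day 1, and 6.69 and 6.92 on day 7. It rose by 2.18 ± 0.10 on day 1 (adjusted p = 2.04e-06) and was 0.61 above sham on day 7, short of the fold threshold. SLC13A2, the carrier of citrate and succinate, rose by 1.25 ± 0.28 on day 1 (adjusted p = 0.00482). From day 1 to day 7, SLC34A2 fell by 1.57, SLC13A2 fell by 1.68 and the renal phosphate carrier SLC34A1 fell by 1.18 on the log2 scale.

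Among the 7 carriers of nucleosides, vitamins and choline, 2 were higher and 1 lower on day 1 (all genes 28.9% and 22%). On day 7, 1 was higher and 0 lower (all genes 17.6% and 13.6%). SLC46A1, the proton-coupled folate carrier, was well above background on 3 of 4 sham arrays and on all graft arrays. SLC46A1 read 2.95, 3.53, 4.67 and 4.25 in sham, 6.16 and 6.10 on day 1, and 6.96 and 6.88 on day 7. Both graft groups lay above every sham sample, by 2.28 ± 0.44 (adjusted p = 0.00233) and 3.07 ± 0.44 (adjusted p = 0.000826). SLC29A1, the equilibrative nucleoside carrier that takes up adenosine, read 8.50, 8.29, 7.64 and 7.60 in sham, 6.62 and 6.43 on day 1, and 8.30 and 8.24 on day 7. SLC29A1 changed by -1.48 ± 0.27 on day 1 (adjusted p = 0.00188) and was 1.74 ± 0.32 higher on day 7 than on day 1 (adjusted p = 0.00235). The concentrative nucleoside carrier SLC28A3 rose on day 1 by 2.30 ± 0.47 (adjusted p = 0.00298), with sham values of 4.51, 4.34, 5.95 and 4.20 and day 1 values of 7.02 and 7.10.

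The 25 carriers that were DEGs in no comparison were SLC2A1, SLC3A1, SLC5A3, SLC5A4, SLC7A8, SLC7A9, SLC8A1, SLC9B2, SLC12A2, SLC12A3, SLC14A2, SLC15A1, SLC16A10, SLC17A5, SLC22A2, SLC22A7, SLC22A23, SLC25A16, SLC26A7, SLC28A2, SLC29A2, SLC30A4, SLC44A2, SLC52A3 and SLC66A3. This holds for the brightest probe of each, and dimmer probes of several were called. Of the 4 SLC17A5 probes, 3 were called lower on day 1 and 2 higher on day 7 than on day 1. Between the days, 3 of 4 SLC25A16 probes, 2 of 4 SLC30A4 probes and 2 of 5 SLC12A2 probes were called higher. SLC22A2 passed the probe filter through day 7 alone. SLC22A2 was not well above background on any day 1 array, so its difference from sham has no measured size there. It was at least 1.72-fold higher on day 7 than on day 1, without a call (adjusted p = 0.0527). The log2 fold changes of the other 24 ranged from -0.96 to 1.55.

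Of the 71 carriers, 37 had several probes tested and 34 had 1. Averaging a gene's probes lost 12 of the 83 calls with the sign kept. These were in SLC1A1, SLC1A5, SLC4A4, SLC5A1, SLC12A1, SLC17A1, SLC25A24, SLC35G1 and SLC36A1. Another 2 calls changed sign and were no longer DEGs. That setting called 30 carriers on day 1, 17 on day 7 and 31 between the days. For 2 of the 37, probes were called in opposite directions in the same comparison. SLC1A5 was one of them, between the days. The other was SLC25A24, whose 4 probes gave 1.58, 1.26, -1.51 and -0.19 on day 1, the first 2 called higher and the third lower, and -1.40, -0.51, 2.24 and 0.71 between the days. SLC4A7 had 8 probes. On day 7 against sham every one of them was above 0 (0.51 to 2.32), and 6 of the 8 were called higher, though the brightest was not. On day 1 the brightest and 1 other were called higher and 5 lay between -0.81 and -0.51. The call of SLC4A7 on day 1 alone is thus that of its brightest probe and not of most of its probes. Between the days the brightest SLC4A7 probe was at -0.88, not a DEG, and 6 of the other 7 were called higher. With the mean of all probes the day 1 change of SLC4A7 was -0.011, and that of SLC25A24 between the days was 0.26, each against the sign of the brightest probe. The second probe of SLC5A6 fell by 3.51 on the log2 scale on day 1, where the brightest changed by -0.73 without a call. Between the days that second probe was called higher (2.96), where the brightest was at -0.76 without a call.

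**Figure D5:**
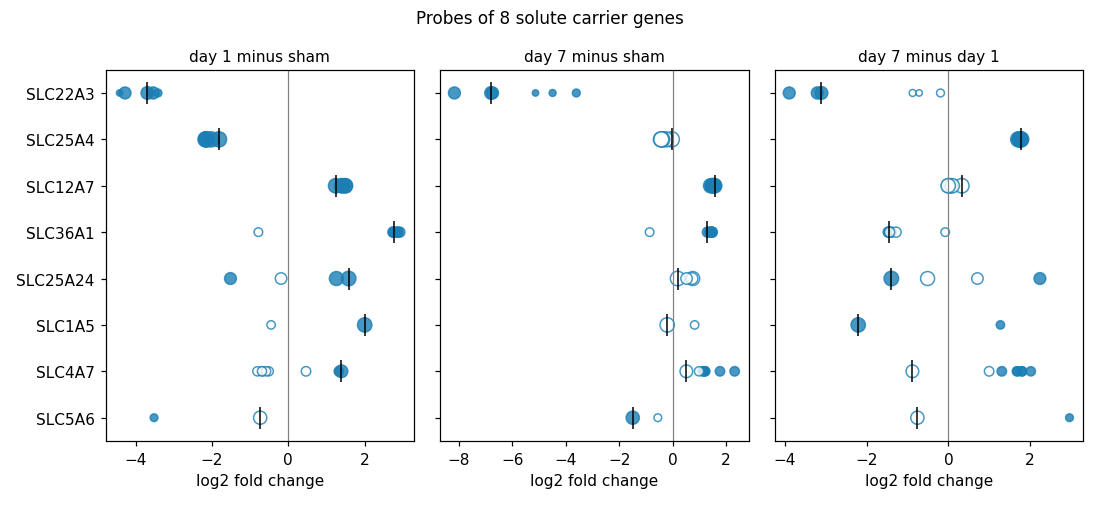
Log2 fold changes of every tested probe of 8 carriers in the 3 comparisons; a larger circle is a probe with a higher mean signal, filled circles are called, and the black tick marks the brightest probe, which stands for the gene. The 6 SLC22A3 probes and 5 SLC25A4 probes lie together in sign on day 1, while probes of SLC25A24, SLC1A5, SLC4A7 and SLC36A1 spread across 0 there. Those of SLC5A6 lie on both sides of 0 between the days.

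The pumps, ion ATPase subunits, chaperones and regulators that serve carriers were described beside them, with 11 of 31 listed genes measured. On day 1, 2 of the 11 were higher and 1 lower (28.9% and 22% of all genes), and on day 7, 3 were higher and 2 lower (17.6% and 13.6% of all genes). The sodium pump subunit ATP1A4, well above background on 2 of 4 sham arrays and on all graft arrays, rose by 5.38 ± 0.48 on day 1 (adjusted p = 3.85e-05) and by 4.29 ± 0.48 on day 7 (adjusted p = 0.000232). ATP1B2, another subunit, was well above background on all sham arrays and on 2 of 6 day 1 arrays and changed on day 1 by -1.25 ± 0.39 (adjusted p = 0.0228). The scaffold NHERF2, which anchors exchangers and phosphate carriers at the membrane, changed by -2.43 ± 0.09 on day 7 (adjusted p = 1.58e-06). Its relative NHERF1 rose, by 2.51 ± 0.44 on day 1 (adjusted p = 0.00142) and by 1.84 ± 0.44 on day 7 (adjusted p = 0.00921). The organic anion carrier SLCO2B1, which the naming rule leaves out, was the 1 gene measured of 10 on its list. It was well above background on no day 1 array and changed by -2.35 on day 7 (adjusted p = 0.0401).

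In bulk tissue, fewer cells of a type and less RNA per cell cannot be told apart, and markers of several cell types moved with the groups. Shares called over all genes were 28.9% higher and 22% lower on day 1, and 17.6% and 13.6% on day 7. A summed signal mostly follows the brightest markers of its list and is no measure of cell number. All 7 measured myeloid markers of 15 listed were DEGs, higher on both days, and their summed signal was 10460 to 28730 in sham, 800900 to 825700 on day 1 and 180600 to 197700 on day 7. Of 4 measured smooth muscle markers of 10 listed, 2 were lower on day 1 and 3 on day 7, with summed signals of 498900 to 781700, 181100 to 182500 and 267400 to 299600. The median log2 fold change of these 4 was -3.50 on day 1 and -2.71 on day 7. All 3 fibroblast markers were lower on day 1 and 1 was on day 7, and their sum was 1009000 to 1063000 in sham, 139200 to 139400 on day 1 and 809700 to 832700 on day 7. Of 3 endothelial markers, 2 were lower on day 1 and all 3 on day 7, with sums of 8823 to 9490, 7924 to 8050 and 3553 to 3749. With KDR at its measured signal, the median log2 fold change of these 3 was -1.31 on day 1 and -2.95 on day 7. All 3 nerve and Schwann cell markers were lower on both days, with sums of 18700 to 23330, 1888 to 1926 and 3985 to 4688. The adipocyte sum ran from 1483 to 125100 among the sham samples, a spread set mainly by 1 bright marker. ADIPOQ, another of the 3 measured, read 8.66, 8.60, 10.11 and 10.07 there on the log2 scale. Of the 3 adipocyte markers, 1 was lower on each day. Lymphocyte markers (4 measured) had 2 DEGs higher on day 1 and 1 on day 7, the 2 erythroid markers had 0, and the single epithelial marker was lower on day 7. KDR was well above background on no graft array and ADIPOQ on no day 1 array. The part of these cell types in the carriers' changes was not tested.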

How the data were processed

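Cy3-labelled RNA from rabbit vein was hybridized to one-colour arrays of 45220 spots. The deposited scanner files hold background-subtracted signal intensity per spot, from Agilent Feature Extraction (11.0.1.1 in the file headers, 9.1 in the submitters' processing notes). The authors also deposited log2 values, quantile-normalized in GeneSpring and filtered on low intensity, which were used as an alternative.

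Control spots (1417) and flagged spots were removed, which left 43603 probes. Log2 processed signals were quantile-normalized and spots of 1 probe averaged. Probes were named through RefSeq accessions (3368 probes, assembly table mOryCun1.1) or Entrez IDs in the study's supplement (2810 probes). In the 153 transcripts with both routes the gene was the same. Of the 71 carriers, 53 were named by the first route and 18 by the second, and 62 were well above background on all 16 arrays. Probes well above background numbered 32794 to 36269 per array, and the number of samples limits the precision.

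All 3 groups were fitted in 1 limma 3.58.1 model (R 4.3.3, lmFit and eBayes). Fits were tested on simulated data. Bounds for dim probes compare the brighter group's mean with, per array, the higher of the lowest signal among probes well above background and the probe's own signal. In each transport class the called carriers with the largest changes were named, up to 3 in each direction, with those of opposite calls between days or probes and the 3 brightest. SLC2A1, SLC7A8, SLC16A10, SLC22A2, SLC38A5 and the second probe of SLC5A6, with other called carriers outside the rule, were added once their values were known. The carriers, classes and lists were chosen with earlier results of these data known. Alternatives changed the scaling, background correction, filter, probe rule, naming, sample averaging, blocks and samples left out. Replicate numbers did not pair the samples, with correlations of deviations from -0.018 to 0.052. Sequences and genome positions were not analysed here. The values of 2 carriers, which count among the 71, and of 1 marker are not reported here.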

Additional observations from a re-analysis of the deposited data

Results flagged for a closer look

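SLC25A15 and SLC5A2 moved in opposite directions on the 2 days. SLC25A15 was 3.30 higher on day 7 than on day 1 on the log2 scale, with all day 1 samples below sham and all day 7 samples above it. SLC5A2 showed the reverse, with a difference of -3.03 between day 7 and day 1. Carriers called in opposite directions against the same sham samples must differ between the days, so these differences are no separate support.

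Among the 71 carriers, 2 had a sham sample that stood apart from the other 3 by Dixon's ratio. For SLC25A4 the sample at 17.16 stood below the nearest at 17.31 (ratio 0.853), a small gap on the scale of its day 1 fall. For SLC52A3, a riboflavin carrier that was no DEG, the sample at 4.78 stood above the nearest at 4.38 (ratio 0.843). Chance alone flags about 1 in 20 groups of independent, normally distributed values. The sham arrays stood in pairs, so that rate need not hold for them.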

How the results depend on the processing

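Across the 3 comparisons the carriers gave 83 calls, and 24 alternatives were run, of which 4 were chosen after seeing the data. Of the 83 calls, 17 held under every alternative that could be fitted, and 36 did so when averaging to 1 sample per graft group was set aside. The 17 include SLC7A5, SLC22A3 and SLC12A4 on both days, SLC3A2 and SLC47A1 on day 7, and SLC12A7, SLC25A4, SLC25A20, SLC6A8, SLC39A10, SLC22A6, SLC22A8, SLC34A2 and SLC5A2 on day 1. With normexp background correction of the raw spot signals the called carriers were 8 on day 7, 21 on day 1 and 16 between the days. With the day 1 and day 7 arrays averaged to 1 sample each and the sham arrays in pairs, the counts were 8, 20 and 0. That setting leaves fewer samples, and SLC15A2 lost its call on both days under it. Leaving out 1 sample at a time gave 18 to 21, 33 to 37 and 27 to 30 called carriers. SLC36A1 on day 7 and between the days, SLC4A9 on day 1 and SLC28A3 between the days lost their calls in several of these. Under the mean of all probes 2 calls changed sign, SLC4A7 on day 1 (-0.011) and SLC25A24 between the days (0.26), and the cause was not tested. With the replicate number as a block, over all 16 arrays separately, 20, 36 and 32 carriers were called and no call was lost. Within each of the 3 scans that held both graft groups, all 29 calls between day 7 and day 1 kept their sign. Each was also at least 1 in size there. Arrays at the same position in different scans differed by less than spot noise and may be repeat readings, so the scans are no independent check. Scaling to the 75th percentile lost 11 calls and reversed 0, while the calls over all genes moved from 5579 higher and 4248 lower to 7778 and 3324 on day 1, from 3405 and 2627 to 3270 and 3403 on day 7, and from 3717 and 4304 to 2651 and 7642 between the days. With normexp the called genes overall fell to 3350, 5466 and 3865 for day 7, day 1 and between the days.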
